A study of Mus musculus with 46 samples.

Results

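The genes described here are the 10 mouse apolipoprotein genes Apoa1, Apoa2, Apoa4, Apoa5, Apob, Apoc1, Apoc2, Apoc3, Apoe and Apoh. They were taken by symbol from each of 4 deposited RNA-seq tables, where they are 10 of 55774 rows in 3 tables and 10 of 56775 in the other, and they were followed through each of 17 comparisons. The study addressed Falcor (listed as 9030622O22Rik), a long noncoding RNA, and the RNA-binding protein ZC3H11A, in 27 AML12 libraries and 19 mouse liver libraries. AML12 is a mouse hepatocyte line that came from a transgenic mouse making human TGFα.

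The libraries formed 13 groups. In the inducible experiment AML12 cells carried a doxycycline-driven control hairpin (shCtrl) or Falcor hairpin (shLinc), and each line was untreated, given doxycycline, or restored after it, with 3 libraries in each of the 6 groups. In the conventional experiment AML12 cells carried a control hairpin, a Falcor hairpin or a ZC3H11A hairpin, again with 3 libraries each. Livers came from control and Falcor knockout mice, 4 and 4 on the diet labelled NCD and 5 and 6 on the diet labelled HFD. The labels do not give the strain, age or sex of the mice, the knockout allele, the doxycycline dose or times, or whether a line was 1 clone. They do not say that the libraries of a group were separate cultures, so p-values for AML12 reflect only how far these libraries vary, possibly for technical reasons.

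Apolipoproteins coat the lipid particles that carry triglyceride and cholesterol in blood, and most of them are made by hepatocytes and enterocytes. ApoB is the structural protein of very low density lipoprotein and stays with its particle for life. ApoA-I and apoA-II are the main proteins of high density lipoprotein. The small C apolipoproteins and apoA-V set how fast lipoprotein lipase clears triglyceride, and apoE is the ligand by which the liver takes up remnant particles. Several of the genes lie in clusters, so neighbours can share regulatory DNA.

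In the mm10 build with the GENCODE vM21 annotation, Apoa1 (46228580 to 46230466, plus strand), Apoc3 (46232933 to 46235636, minus), Apoa4 (46240696 to 46243459, plus) and Apoa5 (46268633 to 46271919, plus) lie within 43340 bases of chromosome 9. Apoc2 (19671579 to 19677941), Apoc1 (19689481 to 19692660) and Apoe (19696109 to 19699188) lie within 27610 bases of chromosome 7, each on the minus strand. Apoa2 is at 171225054 to 171226379 of chromosome 1, Apob at 7977648 to 8016835 of chromosome 12 and Apoh at 108343354 to 108414396 of chromosome 11, each on the plus strand. Each is annotated as protein coding. Apoc2 overlaps the predicted gene Gm44805, and antisense genes overlap Apoa4 (Gm47528 and Gm10680) and Apoa5 (Gm47544). Whether the counting used strand is not given in the sources used here, so reads at Apoa4 and Apoa5 may include the antisense partner.

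The bases before the start sites are printed for the 4 genes with calls in the comparisons described here whose upstream windows held one of the searched motifs: Apob, Apoc2, Apoa1 and Apoa2. They are mm10 sequence given 5′ to 3′ on the gene's strand, credited to RefSeq, and they end before the first base of the annotated gene. Capitals mark TGTTTGC or TGTTTAC (cores bound by FOXA factors, the reverse strand reading GCAAACA or GTAAACA) or AGGTCA (a site bound by nuclear receptors such as HNF4A). The Apob sequence is chr12:7977427-7977647 on the plus strand, Apoc2 is chr7:19677942-19678191 on the minus strand, Apoa1 is chr9:46228380-46228579 on the plus strand, and Apoa2 is chr1:171224804-171225053 on the plus strand.
Apob: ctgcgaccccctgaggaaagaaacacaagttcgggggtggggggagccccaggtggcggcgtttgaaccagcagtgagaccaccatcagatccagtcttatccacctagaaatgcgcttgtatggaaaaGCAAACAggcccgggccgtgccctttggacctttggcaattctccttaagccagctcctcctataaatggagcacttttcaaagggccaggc
Apoc2: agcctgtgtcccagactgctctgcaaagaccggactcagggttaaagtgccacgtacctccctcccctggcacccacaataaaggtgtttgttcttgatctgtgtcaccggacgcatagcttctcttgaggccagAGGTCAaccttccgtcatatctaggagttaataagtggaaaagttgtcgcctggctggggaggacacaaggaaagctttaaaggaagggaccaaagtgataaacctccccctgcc
Apoa1: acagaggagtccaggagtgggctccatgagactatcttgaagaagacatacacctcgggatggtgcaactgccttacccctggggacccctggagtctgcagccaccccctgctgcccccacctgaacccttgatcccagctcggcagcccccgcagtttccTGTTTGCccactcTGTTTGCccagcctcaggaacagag
Apoa2: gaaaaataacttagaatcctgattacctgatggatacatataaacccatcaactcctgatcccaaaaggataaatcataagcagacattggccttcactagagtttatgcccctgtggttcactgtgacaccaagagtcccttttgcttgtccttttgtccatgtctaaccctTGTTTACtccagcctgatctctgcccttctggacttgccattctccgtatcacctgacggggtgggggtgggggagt
Apoa1 held 2 matches to the FOXA core, 88 and 75 bases before its RefSeq start. Apob held 1 at 121 bases and Apoa2 held 1 at 77 bases, and the capitals in Apoc2 are AGGTCA at 115 bases. Of the 8 members with a RefSeq window, 5 held a FOXA core within 250 bases before the start, on either strand: Apoa1, Apoa2, Apoa5, Apob and Apoh. The same search found a FOXA core in 7.22% of 27025 mouse promoters. AGGTCA was found in 2 of the 8 (Apoc2 and Apoh) against 13.8% of promoters, and CAAAGTCCA, a long HNF4A core, in 0 of the 8 against 0.381%. TATAAA was found in 3 of the 8 against 13% of promoters, and TGACG, bound by CREB-like factors, in 2 of the 8 against 17.9%; none of these motifs contains another. A match is a description of letters in these windows.

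The conventional table held 4474760 to 8837581 counts per library. The other 3 tables held whole numbers that summed to 833910 to 975752 per library, with the read depth unknown. There, a set of genes with identical values in every library held 23.9% to 47.9% of each NCD column and 49.3% to 85.0% of each HFD column. On NCD this share split by genotype, at 35.5% to 47.9% in controls and 23.9% to 33.8% in knockouts. Values were therefore rescaled by the trimmed mean of M-values (TMM) and are called scaled values below. The NCD scale factors were 0.879 to 0.973 in controls and 1.003 to 1.151 in knockouts, and the part of this split in the NCD results was not tested. The HFD knockout liver KO-6 had the lowest scale factor, 0.438, against up to 1.40 in the others. Falcor stood at 0 in all 10 knockout livers, against 70 to 135 in NCD controls and 17 to 27 in HFD controls. It was 2 to 3 under the induced Falcor hairpin against 4 to 5 under the induced control hairpin, but 9 to 12 in the untreated Falcor hairpin line against 4 to 6 in the untreated control line, and 9 to 11 against 4 to 5 after restoration. In the conventional experiment its counts were 4 to 7 under the Falcor hairpin and 3 to 6 under the ZC3H11A hairpin against 11 to 38 in control. Zc3h11a was 8.24 ± 5.15 CPM (SD, n = 3; each count divided by the scaled library total and put on a common scale) under its own hairpin, 37.5 ± 4.51 under the Falcor hairpin and 63.6 ± 4.36 in control. These are bulk libraries, in which fewer cells of a type and less RNA per cell cannot be told apart.

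How much apolipoprotein RNA each system held was compared first. In the livers every one of the 10 genes was measured in every library, and together they made up 5.03% to 5.60% of the remaining column in NCD controls and 4.52% to 6.19% in HFD controls, with the identically valued genes left out. In AML12 the same 10 genes made up 0.0016% to 0.0066% in the inducible table and 0.0057% to 0.0343% in the conventional one. The conventional share is of counts not scaled for transcript length. The other tables look scaled for it, which no source states, so the conventional share is not on their measure. Apob, at 6 to 53, was the only member above 10 in any inducible library. Apoc2 ran from 0 to 10, Apoe from 1 to 10 and Apoa1 from 1 to 5, and Apoc1 and Apoh from 0 to 2 and 0 to 1. Apoa2, Apoa4, Apoa5 and Apoc3 were listed at 0 in all 18 inducible libraries. Of 11 hepatocyte markers with a row, 6 had a value above 0 in that table, and Asgr1, Cps1, Fgb, Ahsg and Cyp3a11 were listed at 0. The AML12 results below rest on Apob, Apoc2, Apoe and Apoa1.

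In the control livers on NCD, the order of mean deposited values was Apoe 6812, Apoa2 6113, Apoa1 5159, Apoc1 3188, Apoc3 2908, Apoh 1113, Apob 717, Apoa5 302, Apoc2 108 and Apoa4 25.8. The values look scaled for transcript length, which no source states, so this order of levels between genes is approximate. The ranges of Apoe, Apoa2 and Apoa1 overlapped from neighbour to neighbour, as did those of Apoc1 and Apoc3; the other neighbours were separate. In control livers on HFD, Apoa2 came first at 5402, followed by Apoe 4384, Apoa1 2887, Apoc1 2061, Apoc3 921, Apob 565, Apoh 542, Apoa5 220, Apoa4 217 and Apoc2 139. Apoa4, an apolipoprotein of chylomicrons and HDL, was last on NCD and ninth on HFD. The diets have separately normalized tables, so levels were not tested between them.

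In the inducible experiment the question was what induction of the Falcor hairpin, and its withdrawal, did to these genes. The difference in Apob between the 2 hairpin lines changed sign with the treatment. Without doxycycline the Falcor hairpin cells had more Apob than control cells, and with doxycycline less. After restoration the difference did not pass the test. The untreated difference is one between 2 lines before induction, where 65.3% of all genes tested were called. Apoc2, the activator of lipoprotein lipase, was lower in the Falcor hairpin line with doxycycline. Its difference between the lines there was unlike that in the other 2 states by the test. Apoe was higher in the Falcor hairpin line after restoration, but its difference between the lines did not change between states by the test. Only these 3 members reached the mean value of 3 needed for the test, which was limma on log2(value + 1) over 9877 genes, with adjusted p-values over all of them; on this scale the change of a low gene is understated, and rounding to whole numbers makes the spread of low genes too small.

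**Figure D1:**
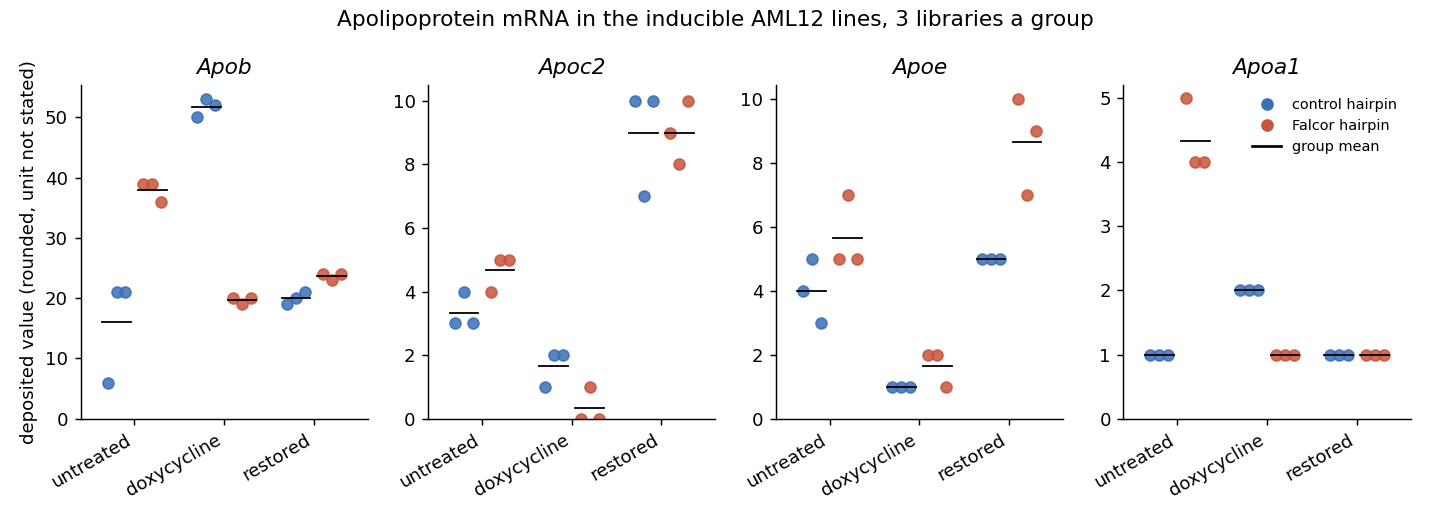
Deposited values of Apob, Apoc2, Apoe and Apoa1 in each of the 18 inducible AML12 libraries, by hairpin line and treatment; points are libraries and bars are group means. The 3 control hairpin libraries on doxycycline hold 50 to 53 for Apob, and the 3 Falcor hairpin libraries on doxycycline hold 19 to 20.

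Without doxycycline, Apob was 6, 21 and 21 in the control hairpin libraries and 39, 39 and 36 in the Falcor hairpin libraries. The 2 groups did not overlap, and control library 1 was far below its own group. The log2 fold change was 1.20 ± 0.29 (SE), with a limma adjusted p of 0.00268, and 0.68 without control library 1, with a limma adjusted p of 2.95e-09. Apoc2 was 3, 4 and 3 against 4, 5 and 5, and Apoe was 4, 5 and 3 against 5, 7 and 5. Both overlapped between the lines and neither passed the test, at 0.24 ± 0.24 (limma adjusted p = 0.389) and 0.26 ± 0.17 (limma adjusted p = 0.196). So 1 of 3 tested members was called before induction, where 65.3% of all genes tested were.

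With doxycycline, Apob was 50, 53 and 52 in the control line and 20, 19 and 20 in the Falcor hairpin line. Every Falcor hairpin library was below every control library, and the log2 fold change was −1.35 ± 0.29 (limma adjusted p = 0.00166). Apoc2 was 1, 2 and 2 against 0, 1 and 0, so the groups met at 1. It fell by 1.09 ± 0.24 on the log2 scale (limma adjusted p = 9.92e-04). Apoe was 1 in each control library and 2, 2 and 1 in the Falcor hairpin line, a log2 fold change of 0.40 ± 0.17 that did not pass (limma adjusted p = 0.0632). It passed at 0.60 without Falcor hairpin library 3 (limma adjusted p = 0.00682) and with a pseudocount of 0.5 (limma adjusted p = 0.0466). Of the 3 tested members, 2 were called, where 52.4% of all genes tested were.

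After restoration, Apob was 19, 20 and 21 in the control line and 24, 23 and 24 in the Falcor hairpin line. These deposited values did not overlap, but the scaled values, at 19.7 to 21.8 and 21.6 to 22.2, did, and the log2 fold change of 0.079 ± 0.29 did not pass (limma adjusted p = 0.83). Apoc2 stood at 10, 7 and 10 against 9, 8 and 10, with overlapping groups and a log2 fold change of −0.13 ± 0.24 (limma adjusted p = 0.645). Apoe was 5 in each control library and 10, 7 and 9 in the Falcor hairpin line, with no overlap. It was higher by 0.54 ± 0.17 on the log2 scale (limma adjusted p = 0.0145), a call lost without Falcor hairpin library 1 (0.44, limma adjusted p = 0.0694). Of the 3 tested members, 1 was called, where 57.9% of all genes tested were.

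The difference between states was tested directly. The Falcor hairpin minus control hairpin difference in Apob was lower with doxycycline than without it, by 2.54 ± 0.41 on the log2 scale (limma adjusted p = 1.11e-04). Without untreated control library 1 it was lower by 2.03 (limma adjusted p = 1.38e-13). It was also lower with doxycycline than after restoration, by −1.43 ± 0.41 (limma adjusted p = 0.00883). For Apoc2 these differences were −1.32 ± 0.33 (limma adjusted p = 0.00225) and −0.95 ± 0.33 (limma adjusted p = 0.0204), and leaving out any 1 of 5 libraries put the second at a limma adjusted p of 0.0515 to 0.0599. For Apoe they were 0.14 ± 0.25 (limma adjusted p = 0.641) and −0.13 ± 0.25 (limma adjusted p = 0.654). Between the restored and untreated states the change in the difference between the lines passed for none of the 3 members above the filter. The values were −1.12 ± 0.41 for Apob (limma adjusted p = 0.0751), −0.37 ± 0.33 for Apoc2 (limma adjusted p = 0.477) and 0.27 ± 0.25 for Apoe (limma adjusted p = 0.48). Without untreated control library 1 the Apob difference was −0.60 and passed (limma adjusted p = 3.18e-06). It passed in 3 of 18 alternative settings, that one included, over which it ran from −1.376 to −0.6023. The 3 differences called 2, 2 and 0 members, beside 64.9%, 60.5% and 19.8% of all genes tested.

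The treatments moved the genes within the control line too. Doxycycline raised Apob there by 1.83 ± 0.29 on the log2 scale (limma adjusted p = 8.60e-05), or by 1.32 without untreated library 1 (limma adjusted p = 5.65e-13). Apoc2 fell by 0.71 ± 0.24 (limma adjusted p = 0.0133) and Apoe by 1.31 ± 0.17 (limma adjusted p = 4.55e-06), so 3 of 3 were called where 66.5% of all genes tested were. The Apoc2 call was lost without untreated library 2 (limma adjusted p = 0.0515) or without doxycycline library 1 (limma adjusted p = 0.0801). In the Falcor hairpin line doxycycline lowered all 3 tested members, including Apob: Apob by −0.71 ± 0.29 (limma adjusted p = 0.0415), Apoc2 by −2.03 ± 0.24 (limma adjusted p = 5.18e-07) and Apoe by −1.17 ± 0.17 (limma adjusted p = 1.05e-05). Of all genes tested 74.2% were called there, 35.6% lower. That Apob call did not hold when any 1 library of either group was left out, at limma adjusted p-values of 0.0648 to 0.0927. It was also lost with no filter on low values (limma adjusted p = 0.0531). Scaled Apob was 32.5 to 36.1 untreated and 20.1 to 21.0 on doxycycline in this line, without overlap. The spread was pooled over all groups, with an SD of 8.39 in untreated control cells against 1.80 and 0.50 here. Untreated control library 1 stayed in each of these fits, and its part in these p-values was not tested.

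After restoration most of these changes went the other way. In the control line Apob went down by −1.34 ± 0.29 (limma adjusted p = 9.34e-04), Apoc2 up by 1.92 ± 0.24 (limma adjusted p = 1.25e-06) and Apoe up by 1.60 ± 0.17 (limma adjusted p = 3.05e-07). In the Falcor hairpin line Apoc2 rose by 2.88 ± 0.24 (limma adjusted p = 7.51e-09) and Apoe by 1.73 ± 0.17 (limma adjusted p = 1.03e-07), while Apob did not pass at 0.084 ± 0.29 (limma adjusted p = 0.808). The counts were 3 of 3 beside 73.7% and 2 of 3 beside 72.2% of all genes tested. Restored cells were not at the untreated level for Apoc2, which was higher by 1.21 ± 0.24 in the control line (limma adjusted p = 4.09e-04) and by 0.84 ± 0.24 in the Falcor hairpin line (limma adjusted p = 0.00641). Apoe was higher by 0.56 ± 0.17 in the Falcor hairpin line (limma adjusted p = 0.012), a call lost without untreated library 3 (limma adjusted p = 0.051) or restored library 1 (0.47, limma adjusted p = 0.0595), and by 0.29 ± 0.17 in the control line, which did not pass (limma adjusted p = 0.179). Apob did not pass in either, at 0.49 ± 0.29 in the control line (limma adjusted p = 0.179) and −0.62 ± 0.29 in the Falcor hairpin line (limma adjusted p = 0.0896). In the Falcor hairpin line its scaled values were 32.5 to 36.1 untreated and 21.6 to 22.2 restored, without overlap. The spread in that test was pooled over all groups, untreated control library 1 included. The control line value was −0.025 without untreated library 1 (limma adjusted p = 0.683) and 0.75 without untreated library 3, where it passed (limma adjusted p = 0.0495). That made 1 of 3 in the control line, beside 49.9% of all genes tested, and 2 of 3 in the Falcor hairpin line, beside 52.3%.

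Apoa1, whose mean was under the filter, was 5, 4 and 4 in the untreated Falcor hairpin line and 1 or 2 in the other 15 libraries. With the filter lowered to a mean of 1 its hairpin log2 fold change was 1.27 ± 0.12 without doxycycline (limma adjusted p = 1.38e-07), −0.59 with it (limma adjusted p = 6.52e-04) and −0.080 after restoration (limma adjusted p = 0.606). Its direction turned between the untreated and the induced state as that of Apob did. The difference in Apoa1 between the lines was lower on doxycycline than without it by −1.87 (limma adjusted p = 9.43e-08) and than after restoration by −0.51 (limma adjusted p = 0.0169). It was lower after restoration than untreated by −1.35 (limma adjusted p = 2.96e-05). Within the control line Apoa1 rose by 0.61 on doxycycline (limma adjusted p = 3.30e-04) and went down by −0.60 on restoration (limma adjusted p = 2.84e-04), and the restored and untreated states were 0.0030 apart (limma adjusted p = 0.997). Within the Falcor hairpin line it was lower by −1.26 on doxycycline than untreated (limma adjusted p = 6.36e-08) and by −1.35 after restoration than untreated (limma adjusted p = 1.28e-07), with −0.089 between restoration and doxycycline (limma adjusted p = 0.532). These rest on whole numbers from 1 to 5. Apoc1 and Apoh stood at 2 or less in every library. With no filter Apoh passed after restoration (0.95, limma adjusted p = 0.00853), on values of 0 and 1.

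The 3 genes whose pattern over the 18 libraries was most like that of Apob, among 6703 genes with a mean of at least 10, were Lcor (Pearson r = 0.977), Pbrm1 (0.961) and Myo5a (0.954). Lcor encodes a nuclear receptor corepressor, Pbrm1 a chromatin remodelling subunit and Myo5a a motor protein. These correlations describe libraries that share groups and scaling. Without untreated control library 1 they were 0.964, 0.957 and 0.919 over 17 libraries. Mean Lcor values were 11.7 and 20.3 in the untreated control and Falcor hairpin lines, 28 and 14.3 on doxycycline, and 12.3 and 16.7 after restoration.

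Apob has a long messenger RNA, 13934 bases in its longest annotated form, so genes with long transcripts were read beside it. Among 430 tested genes with a transcript of at least 8000 bases, the median hairpin log2 fold change was 0.405 without doxycycline, −0.173 with it and 0.234 after restoration, against −0.0324, 0.0038 and −0.0305 for the 9149 other genes. Of the 430, 269 were called higher and 31 lower without doxycycline, 41 and 136 with it, and 165 and 44 after restoration, so a share of the long genes did not follow their median. The change from untreated to doxycycline in the control line had a median of 0.439 in the long genes. In untreated control library 1 the long genes stood at a median of −0.557 on the log2 scale relative to the other 2 libraries of the group, and Apob at −1.55. Apob lay beyond the long-gene median in the same direction in each of these except after restoration, where it was at 0.079, and the part of transcript length in its values was not tested.

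**Figure D2:**
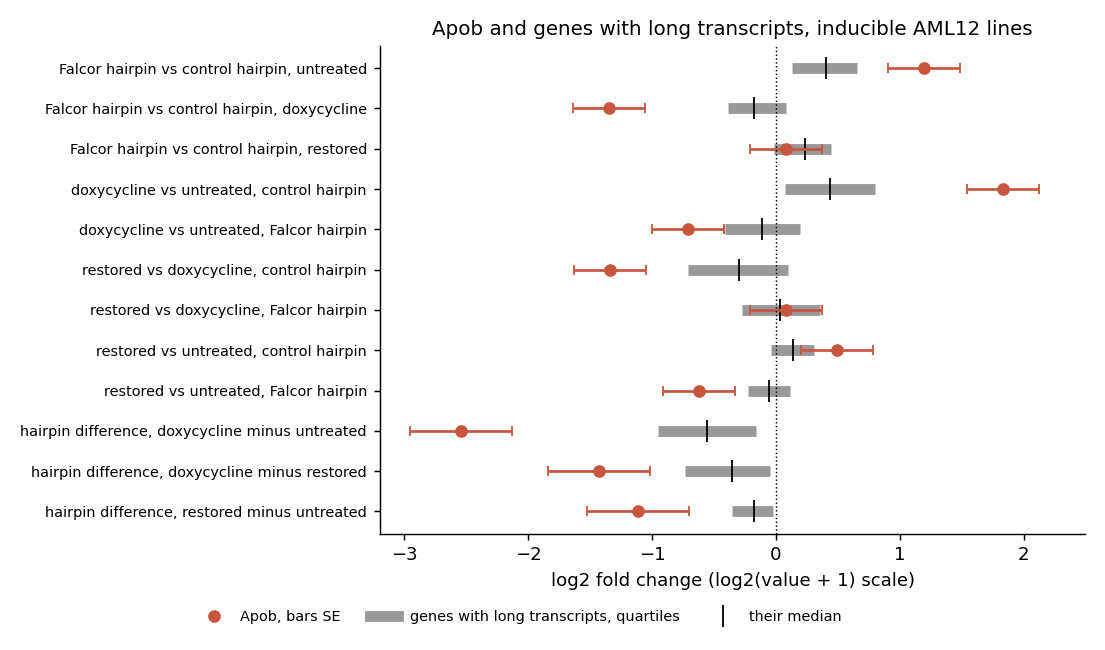
Log2 fold change of Apob (points, with bars of 1 SE) in the 12 comparisons of the inducible table, beside the median and quartiles of 430 genes with a transcript of at least 8000 bases. Apob lies at 1.20 and −1.35 in the untreated and doxycycline hairpin comparisons, where the long-gene medians are 0.405 and −0.173.

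Markers of other cell types and of the hepatocyte state were read beside these results. The summed scaled level of the hepatocyte list was 641 to 721 in the untreated control line and 1248 to 1310 in the untreated Falcor hairpin line, 747 to 772 and 438 to 447 on doxycycline, and 874 to 885 and 1604 to 1669 after restoration. Of 5 tested hepatocyte markers, 1 was higher and 4 lower in the Falcor hairpin line without doxycycline, 0 and 5 with it, and 3 and 0 after restoration. The summed level of the intestinal list, in which Vil1 and Rbp2 were tested, was 63.5 to 69.0 and 160.9 to 170.2 in the untreated lines and 68.0 to 68.3 and 38.9 to 45.0 on doxycycline, and 65.7 to 73.7 and 78.7 to 89.8 after restoration. Apob and Apoa1 are also genes of intestinal epithelium, and the part of these markers in their values was not tested.

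Genes that act on apolipoproteins were counted in 5 lists: ApoB particle assembly and secretion, lipoprotein receptors, HDL formation, triglyceride lipases, and transcription factors. These counts stand beside 65.3%, 52.4% and 57.9% of all genes tested called in the untreated, doxycycline and restored hairpin comparisons. Under induction, 3 of 14 tested assembly genes were higher and 6 lower in the Falcor hairpin line, with a median log2 fold change of −0.0189 against 0.00357 over all genes tested. The cargo receptors Mia2 and Mia3 were lower, by −0.44 and −0.40, and Surf4, the receptor that carries ApoB particles out of the endoplasmic reticulum, was higher by 0.19. The lipase list had 1 of 8 higher and 6 lower with a median of −0.35, among them Angptl4, an inhibitor of lipoprotein lipase, at −1.11, the lysosomal lipase Lipa at −0.74 and G0s2 at −0.44. Among receptors 3 of 10 were higher and 2 lower, with Lsr at 0.25. Of 21 factors 7 were higher and 6 lower, with Foxa1 at 0.77, Srebf2 at 0.31 and Nr1h3 (LXRα) at −0.42, and 0 of 3 HDL genes were called. Of 4 further genes listed with the apolipoproteins 1 was higher and 2 lower, with Clu (clusterin) at 0.73, Apoo at −0.56 and Apool at −0.39. A place of these genes on lipid particles was not tested.

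Without doxycycline 5 of 14 assembly genes were higher and 4 lower, with Dnajb9 at 0.58, Vmp1 at 0.37 and Arf1 at −0.30. Of 21 transcription factors 10 were higher and 6 lower, with a median of 0.0567 against −0.0132 over all genes tested; Cebpa was at 0.50, Nr1h4 (FXR) at 0.45 and Cebpb at −0.68. Of 10 receptor genes 3 were higher and 5 lower, with Lsr at −0.37 and Sdc1 at −0.32. Of 8 lipase genes 3 were higher and 4 lower, with Lipa at 0.44, Hilpda at −0.63 and G0s2 at −0.73. Bmp1 (−0.14) was the 1 call of 3 HDL genes. Clu (−0.65) and Apon (−0.60) were the 2 calls of 4 further genes listed with the apolipoproteins.

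After restoration 2 of 10 receptor genes were higher and 8 lower, with a median of −0.443 against −0.0182 over all genes tested, and Lsr, a lipoprotein receptor of the liver, was at −0.34. Assembly genes were 6 higher and 2 lower of 14, with Vmp1 at 0.47, Mia3 at 0.37 and Apobec1, the enzyme that edits Apob messenger RNA, at −1.19. Of 21 transcription factors 9 were higher and 7 lower, with Foxa1 at 1.01, Foxa3 at 0.76 and Nr1h3 at −0.46. Of 8 lipase genes 2 were higher and 4 lower, with Lipa at 0.55, G0s2 at −0.89 and Hilpda at −1.06. Bmp1 (−0.36) and Scarb1 (−0.52), the HDL receptor, were the 2 calls of 3 HDL genes. Of 4 further genes listed with the apolipoproteins 2 were higher and 1 lower, with Clu at 0.38, Apoo at 0.15 and Apon at −0.86.

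In the conventional experiment the question was whether the 2 knockdowns did the same to these genes. Apoa1, Apob and Apoc2 were each lower under the Falcor hairpin than in control. Under the ZC3H11A hairpin Apoa1 and Apob were higher than in control and Apoc2 did not pass the test. These 3 were the members with enough counts for edgeR, which tested 11871 genes, and the 2 comparisons share their 3 control libraries.

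**Figure D3:**
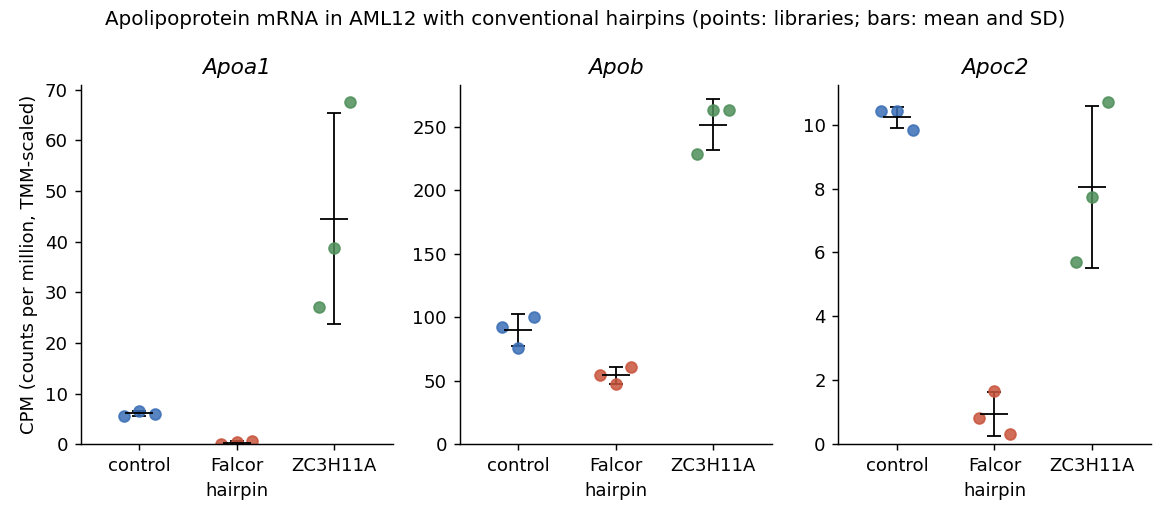
CPM of Apoa1, Apob and Apoc2 in the 9 conventional AML12 libraries, on linear axes from 0; points are libraries, and the lines show the mean and SD of 3 libraries. Apoa1 and Apob lie lowest under the Falcor hairpin and highest under the ZC3H11A hairpin, and Apoc2 lies near 1 under the Falcor hairpin and from 5.71 to 10.7 in the others.

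Apob was 92.7, 75.8 and 100.5 CPM in control, 54.4, 47.7 and 60.7 under the Falcor hairpin, and 228.5, 263.6 and 263.2 under the ZC3H11A hairpin. No 2 groups overlapped. Their means were 89.7 ± 12.6, 54.3 ± 6.54 and 252 ± 20.1 CPM (SD, n = 3). Apob fell by 0.71 ± 0.11 (SE) on the log2 scale under the Falcor hairpin (edgeR adjusted p = 5.53e-05) and rose by 1.48 ± 0.10 under the ZC3H11A hairpin (edgeR adjusted p = 9.66e-09). Here the 633 tested genes with long transcripts had medians of −0.0361 and 0.0373.

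Apoa1, which encodes the main HDL protein, had 49, 37 and 36 counts in control, 0, 2 and 5 under the Falcor hairpin, and 195, 176 and 372 under the ZC3H11A hairpin. The 3 groups were apart from each other, and the Falcor hairpin libraries were near the floor, since a count of 0 allows up to 3 counts. That is 0.3295 to 0.6272 CPM in the Falcor hairpin libraries, for counting error only. Means were 6.07 ± 0.510, 0.322 ± 0.287 and 44.5 ± 20.8 CPM (SD, n = 3). The fitted log2 fold changes were −4.04 ± 0.70 under the Falcor hairpin (edgeR adjusted p = 6.85e-04) and 2.87 ± 0.35 under the ZC3H11A hairpin (edgeR adjusted p = 6.92e-05). With so few counts the size of the first is uncertain: it ran from −4.89 to −3.53 as single libraries were left out, and limma-voom put it at −4.30 without a call (adjusted p = 0.0893).

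Apoc2 had 90, 58 and 60 counts in control, 5, 8 and 3 under the Falcor hairpin, and 41, 35 and 59 under the ZC3H11A hairpin. The Falcor hairpin libraries lay below the rest, and the other 2 groups overlapped in CPM, at 10.4, 10.4 and 9.83 against 5.71, 7.73 and 10.7. The log2 fold changes were −3.60 ± 0.40 (edgeR adjusted p = 7.52e-07) and −0.35 ± 0.30 (edgeR adjusted p = 0.356). Under the Falcor hairpin 3 of 3 tested members were called, each lower, where 51.5% of all genes tested were called, 26% lower. Under the ZC3H11A hairpin 2 of 3 were called, each higher, where 48.5% were called, 24.2% higher.

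Set directly against each other, the Falcor hairpin libraries were below the ZC3H11A hairpin libraries for Apoa1 by −6.92 ± 0.55 on the log2 scale (edgeR adjusted p = 1.56e-06). For Apob the difference was −2.20 ± 0.11 (edgeR adjusted p = 1.05e-10) and for Apoc2 −3.24 ± 0.41 (edgeR adjusted p = 2.55e-06). The groups did not overlap for any of these 3, each of which was called lower beside 56.9% of all genes tested, 28.6% lower. The Falcor transcript itself was low under both hairpins, as given above.

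The 7 other members had too few counts for a test. Apoe had 9, 1 and 0 counts in control, 4, 0 and 2 under the Falcor hairpin, and 4, 3 and 3 under the ZC3H11A hairpin, and Apoh had at most 6 counts in any library. Apoa5 had at most 2 counts in any library and Apoc3 at most 4, Apoa4 had a single count in 1 ZC3H11A hairpin library, and Apoa2 and Apoc1 had 0 in all 9. No difference in these genes was detectable at this depth.

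The lists of pathway genes are read beside 51.5% of all genes tested called under the Falcor hairpin and 48.5% under the ZC3H11A hairpin. Under the Falcor hairpin 2 of 17 assembly genes were higher and 9 lower, with a median of −0.232 against −0.00489 over all genes tested. Sar1b, the small GTPase needed to export ApoB particles, was at −1.81, Surf4 at −1.29 and P4hb, a subunit of the microsomal triglyceride transfer complex, at −1.01. Of 23 transcription factors 4 were higher and 10 lower, and Foxa2, Hnf4a and Cebpb were at −1.48 ± 0.10, −1.07 ± 0.079 and −0.78. Of 12 receptors 4 were higher and 1 lower, among them Lrp1 at 1.42 and Vldlr at 0.32. Lipoprotein lipase, Lpl, was at 1.22 and its inhibitor Angptl4 at −0.87, with 2 of 8 lipase genes higher and 2 lower, among them the lipase maturation factor Lmf1 at −0.90. Of 4 HDL genes Bmp1 was higher (0.33) and Pltp, the phospholipid transfer protein, lower (−1.42).

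Under the ZC3H11A hairpin 8 of 17 assembly genes were higher and 6 lower, with a median of 0.329 against 0.00215 over all genes tested. Mttp, which loads lipid onto ApoB, was at 2.18, Mia3 at 0.86 and Sec24a at 0.75. Of the 23 transcription factors 1 was higher and 10 lower, with a median of −0.238; Hnf4a was the one higher, at 0.68, and Srebf2 and Nr2f6 were at −0.74 and −0.97. Of 12 receptors 5 were higher and 2 lower, with Vldlr at 0.95 and the fatty acid transporter Cd36 at −2.45. Of 8 lipase genes 3 were higher and 3 lower, with Lipa at 0.28, Angptl8 at −1.05 and Lpl at −1.25, and of 4 HDL genes Naxe was higher (0.60) and Scarb1 (−1.002) and Pltp (−2.21) lower. Among 4 further tested genes listed with the apolipoproteins, 1 was higher and 2 lower under the Falcor hairpin (Apol9a 3.68, Apoo −2.29, Clu −0.55). Under the ZC3H11A hairpin 2 were higher and 1 lower (Apool 0.49, Apoo 0.44, Clu −0.81).

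Markers of cell types were read beside these values. The summed hepatocyte list stood at 283 to 335 CPM in control, 25.3 to 36.5 under the Falcor hairpin and 273 to 448 under the ZC3H11A hairpin. Of 5 tested hepatocyte markers 0 were higher and 5 lower in the first comparison, and 2 were higher and 3 lower in the second. The summed Kupffer cell and macrophage list was 4.10 to 5.56, 48.6 to 51.3 and 6.54 to 8.83 CPM. Only Cd68 of that list could be tested, and most others of it were at 0. It was at 3.65 under the Falcor hairpin and was called higher under the ZC3H11A hairpin too. The intestinal list was 34.0 to 36.6, 26.8 to 30.1 and 89.9 to 123 CPM, and the stellate cell and fibroblast list 12.04 to 20.65, 23.6 to 27.0 and 18.7 to 23.1 CPM, with its 1 tested marker higher in both knockdowns. The biliary list was 767 to 853, 764 to 817 and 665 to 739 CPM, with 0 of 4 higher and 1 lower in the first comparison and 1 higher and 3 lower in the second. The part of these markers in the apolipoprotein values was not tested.

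In the livers the question was whether loss of Falcor changed these genes in the animal. On NCD, Apoa2 and Apob were higher in knockout livers, by 1.60-fold and 1.42-fold on the log2(value + 1) scale, and these calls were close to the threshold and rested on single livers. On HFD no member passed the test, and Apoa4, Apoc2 and Apoc3 lay lower in most knockout livers without passing after adjustment. The 10 members were all tested in both diets, among 9536 genes on NCD and 6176 on HFD.

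**Figure D4:**
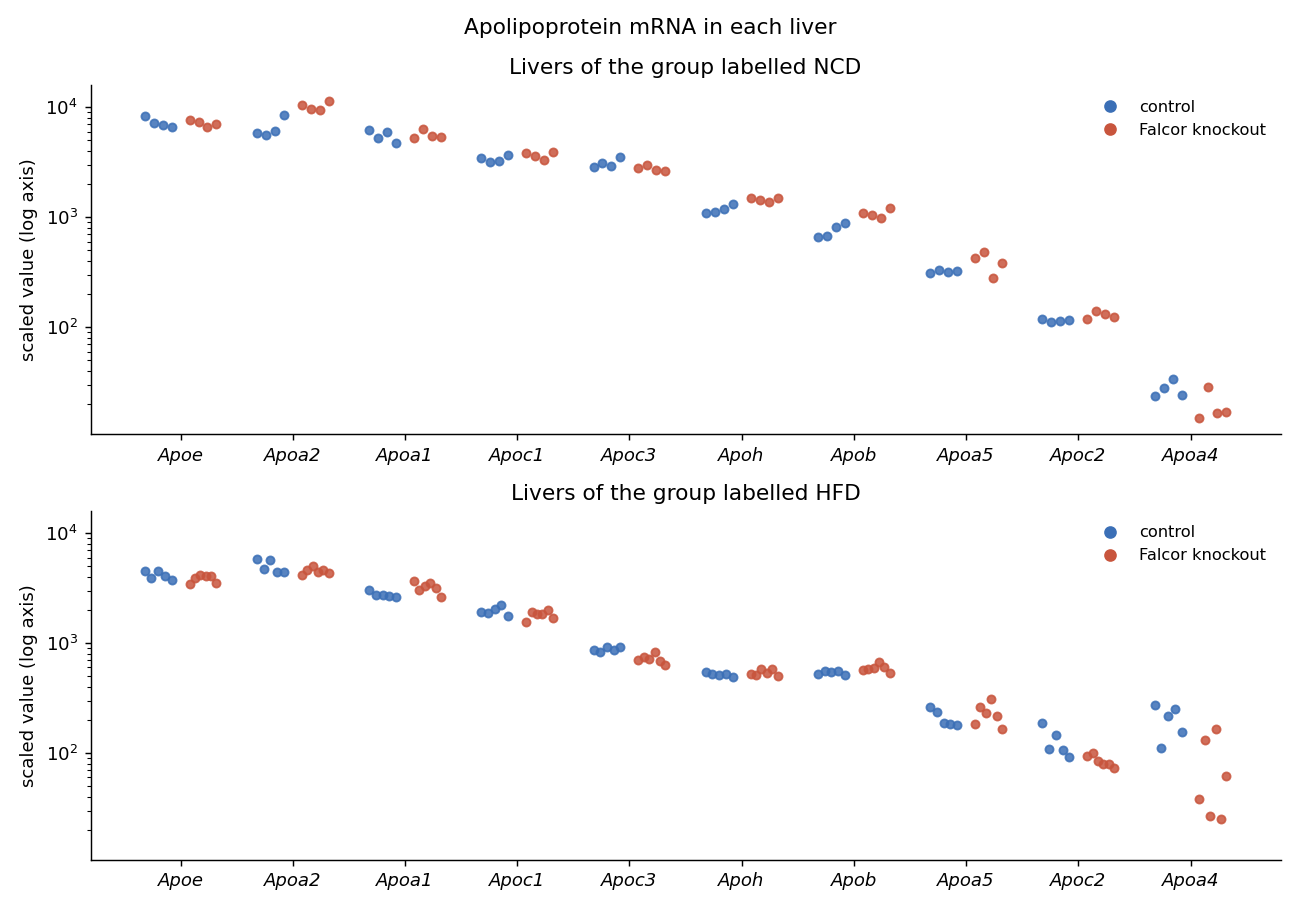
Scaled values of the 10 apolipoprotein genes in each liver library, on a logarithmic axis, with the NCD table and the HFD table in separate panels that were normalized separately. On NCD the knockout points of Apoa2, Apob and Apoh lie above every control point, and on HFD the 2 genotypes overlap for each gene. How many of all genes tested lie apart in this way was not counted.

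On NCD, Apob was 666.8, 675.5, 820.6 and 896.9 in controls and 1086, 1049, 986 and 1206 in knockouts. The 4 knockout livers were above the 4 controls, with means of 1082 ± 92.7 and 765 ± 113 (SD, n = 4). The log2 fold change was 0.51 ± 0.12, with a 95% interval of 0.234 to 0.780 (limma adjusted p = 0.0460). Among 442 tested genes with long transcripts the median on NCD was 0.159, against 0.0289 for the 8586 others, with 37 called higher and 2 lower, and the part of length in the Apob value was not tested.

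The HDL protein gene Apoa2 was 5872, 5608, 6056 and 8546 in NCD controls and 10583, 9628, 9521 and 11472 in knockouts. The groups did not overlap, and control liver Ctrl-5 stood well above the other 3 controls. The log2 fold change was 0.68 ± 0.15, with a 95% interval of 0.340 to 1.01 (limma adjusted p = 0.0430). Apoa1 was 4776 to 6202 in controls and 5216 to 6349 in knockouts, with overlapping groups and a log2 fold change of 0.025 ± 0.12 (limma adjusted p = 0.899). The ratio of Apoa2 to Apoa1 within a library, which no scaling can change, was 0.947 to 1.79 in controls (median 1.05) and 1.52 to 2.13 in knockouts (median 1.88).

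These 2 calls were fragile. Leaving out any 1 liver other than Ctrl-5 left neither called: over single livers left out, the log2 fold change of Apoa2 ran from 0.61 to 0.80 with limma adjusted p-values of 0.00727 to 0.136, and that of Apob from 0.44 to 0.58 with 0.0138 to 0.142. With a mean of at least 1 as the filter neither was called (limma adjusted p = 0.0534 and 0.0592). Neither was called with a replicate block, where Apoa2 was at 0.54 and Apob at 0.34 (limma adjusted p = 0.331 and 0.427). That fit held only the livers with the 2 shared replicate numbers, so losing the calls there cannot be laid to the block. Apob was also not called with median-of-ratios scaling (limma adjusted p = 0.0533) or with no filter (limma adjusted p = 0.0601). Without Ctrl-5, Apoh was called as well (0.34, limma adjusted p = 0.0205). Of 10 tested members 2 were called, each higher, where 5.98% of all genes tested were called, 4.16% higher.

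Apoh, which encodes β2-glycoprotein I, a phospholipid-binding plasma protein, was 1097, 1118, 1201 and 1334 in NCD controls and 1492, 1423, 1384 and 1507 in knockouts. The groups did not overlap, but the log2 fold change of 0.29 ± 0.089 did not pass (limma adjusted p = 0.0735). Apoa4 was 23.9, 27.8, 34.1 and 24.1 in controls and 14.9, 28.5, 16.5 and 17.1 in knockouts. Of the knockouts 3 lay below every control and KO-2 did not, and the log2 fold change was −0.52 ± 0.20 (limma adjusted p = 0.125).

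Apoa5, an activator of triglyceride clearance, was 310.6 to 335.2 in NCD controls and 280.6 to 485.7 in knockouts, so the knockouts spread to both sides of the controls. Its log2 fold change was 0.26 ± 0.15 (limma adjusted p = 0.28). None of the C apolipoproteins passed, at 0.11 ± 0.093 for Apoc1 (limma adjusted p = 0.436), 0.15 ± 0.075 for Apoc2 (limma adjusted p = 0.207) and −0.16 ± 0.096 for Apoc3, an inhibitor of triglyceride clearance (limma adjusted p = 0.289). Apoe was at −0.023 ± 0.10, with an interval of −0.259 to 0.214 (limma adjusted p = 0.9). The median over the 10 members was 0.134, beside 0.0368 over all genes tested.

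On HFD, Apoa4 had the largest difference and the largest spread. Its scaled values were 273.8, 111.3, 217.6, 254.0 and 155.1 in controls, and ran from 25.1 through a median of 50.0 to 165.8 in knockouts. The groups overlapped because knockouts KO-2 and KO-4, at 131.9 and 165.8, lay within the control range while the other 4 lay below it. Means were 202 ± 68.1 (SD, n = 5) and 74.9 ± 59.7 (SD, n = 6). The log2 fold change was −1.73 ± 0.51, with a 95% interval of −2.86 to −0.60 (unadjusted p = 0.00627, limma adjusted p = 0.217). Without rescaling it was −1.81 and passed (limma adjusted p = 7.90e-04), and without the outlying library KO-6 it was −1.75 (limma adjusted p = 0.26).

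Apoc3 was 860.7, 821.1, 920.4, 856.4 and 916.1 in HFD controls and 629.8 to 827.8 in knockouts, where 5 of 6 lay below every control. Its log2 fold change was −0.28 ± 0.078, with an interval of −0.454 to −0.114 (unadjusted p = 0.00354, limma adjusted p = 0.192). Apoc2 was 188.7, 107.9, 146.0, 106.5 and 92.4 in controls and 73.0 to 99.6 in knockouts. Of the knockouts 4 lay below every control, and the log2 fold change was −0.54 ± 0.17, with an interval of −0.911 to −0.176 (unadjusted p = 0.00752, limma adjusted p = 0.222). Apoa1 was 2600 to 3011 in controls and 2608 to 3647 in knockouts, at 0.22 ± 0.094 (unadjusted p = 0.0352, limma adjusted p = 0.363).

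The remaining HFD values were small. Apob was 512.5 to 554.7 in controls and 531.7 to 675.6 in knockouts, a log2 fold change of 0.13 with an interval of −0.0221 to 0.288 (limma adjusted p = 0.486). Apoa2 was at −0.14 with an interval of −0.357 to 0.0709 (limma adjusted p = 0.592). These intervals leave out the NCD estimates for Apob (0.51) and Apoa2 (0.68), which have errors of their own. The NCD interval of Apob, given above, overlaps its HFD interval, and that of Apoa2 does not. The difference between diets was not tested. Apoa5 was at 0.11 (limma adjusted p = 0.831), Apoc1 at −0.12 (limma adjusted p = 0.631), Apoe at −0.098 (limma adjusted p = 0.683) and Apoh at 0.058 (limma adjusted p = 0.76). Of the 10 tested members 0 were called by limma, beside 0.0486% of all genes tested, which is 3 genes.

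**Figure D5:**
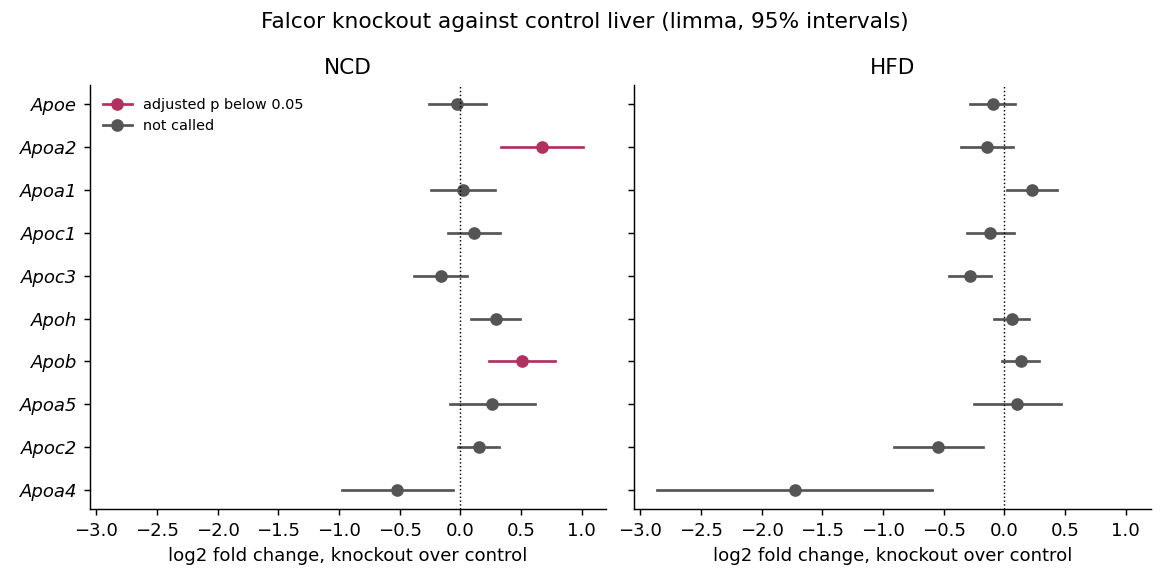
Log2 fold change of each apolipoprotein gene in knockout against control livers, with 95% limma intervals, for NCD and HFD. Apob and Apoa2 lie highest on NCD (0.51 and 0.68), and Apoa4 lies lowest on both (−0.52 and −1.73).

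Ratios within a library removed the scaling from these comparisons. On HFD the ratio of Apoc3 to Apoa1, which are neighbours on chromosome 9, was 0.286 to 0.352 in controls (median 0.323) and 0.192 to 0.246 in knockouts (median 0.227). No knockout reached a control. On NCD this ratio was 0.458 to 0.738 and 0.469 to 0.533, with overlap. The ratio of Apoa2 to Apoa1 on HFD was 1.68 to 2.11 in controls (median 1.74) and 1.15 to 1.67 in knockouts (median 1.48), also without overlap, with the medians in the opposite order to NCD. Apoa4 to Apoa1 was 0.0407 to 0.0957 against 0.00792 to 0.0470 on HFD, and Apoc2 to Apoe 0.0248 to 0.0421 against 0.0194 to 0.0272. The ratio of Apoa5 to Apoa1 on HFD was 0.0685 to 0.0866 in controls and 0.05035 to 0.0871 in knockouts, with overlap. Apoc1 to Apoe on HFD was 0.424 to 0.549 in controls and 0.439 to 0.493 in knockouts, also with overlap. Ratios were described and not tested, and how often ratios of other genes lie apart in these livers was not counted.

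Pathway genes in the livers are read beside the shares of all genes called, given above. On NCD 4 of 21 assembly genes were higher and 1 lower in knockouts, with a median of 0.0432 against 0.0368 over all genes tested. Tm6sf2, needed to lipidate ApoB particles, was at 0.57, Sec24a at 0.55 and Pla2g12b at −0.54. Of 8 HDL and transfer genes 2 were higher, and these were the sterol exporter genes Abcg5 (0.81) and Abcg8 (0.70). Lipa was at 0.50 as the 1 call of 10 lipase genes, Lsr at −0.57 as the 1 call of 12 receptors, and Ppara (0.64) and Nr2f6 (−0.43) were the calls among 25 transcription factors. None of 14 further genes listed with the apolipoproteins was called. On HFD none of the tested genes of these lists was called, and the median over the members was −0.107 beside 0.0197 over all genes tested.

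The hepatocyte list summed to 41570 to 52680 in NCD controls and 47560 to 64400 in NCD knockouts, with 0 of 11 markers called, and to 21090 to 25790 and 18980 to 27050 on HFD. The Kupffer cell and macrophage list summed to 211 to 428 and 149 to 227 on NCD. On HFD the stellate cell and fibroblast list summed to 34.1 to 54.8 in controls and 20.5 to 31.9 in knockouts and the adipocyte list, with a value for Cfd alone, to 1.1 to 7.95 and 0 to 0.874. Neither overlapped between the genotypes, and none of the tested markers of any list was called on either diet. Of the intestinal list Fabp2 alone had a value in the livers, and Vil1, Alpi, Rbp2 and Cdx2 were at 0 in each. It summed to 12.3 to 18.9 and 14.8 to 29.4 on NCD and to 26.4 to 51.3 and 16.7 to 34.9 on HFD. The part of these markers in the apolipoprotein values was not tested.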

How the data were processed

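Gene expression was read by RNA-seq in 46 libraries. Per the labels' protocols, rRNA was removed and the libraries keep strand. Kallisto, DESeq2 and mm10 come from the submitters' processing notes, and neither their settings nor an annotation is given in the sources used here. The conventional table holds deposited counts. The other 3 tables hold whole numbers treated as a score, which the authors appear to have normalized and rounded and whose unit no source used here gives, so no count test was run on them and depth is unknown.

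Scores were scaled by TMM (edgeR 4.0.16) and tested as log2(value + 1) with limma 3.58.1 (trend and robust options, R 4.3.3) for genes with a mean of at least 3, each table alone and all its groups in 1 fit. The count table went through edgeR's default filter and quasi-likelihood test, and CPM were computed from it. P-values are two-sided and adjusted by Benjamini-Hochberg over all genes tested, and a call is an adjusted p below 0.05. Each column was matched to a sample or a group, with 0 unmatched. The NCD columns Ctrl-2 and Ctrl-3 and the HFD columns Ctrl-1 and Ctrl-2 were matched by group alone. Their names are also those of cell line samples. Inducible columns that name no doxycycline state were taken as untreated. The fits were tested on simulated data.

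By the naming rule all 10 members are followed, those below a filter by their values, and each pathway list gives up to 3 called genes with the smallest p, printed for the comparisons between hairpins, of each knockdown with control and between genotypes. Some receptor list genes that this rule names are not reported here. The members and lists were chosen with earlier results of these data known. Alternatives were no rescaling or other scaling, a pseudocount of 0.5, a mean of at least 1 or no filter, DESeq2 1.42.0 and limma-voom for counts, a replicate block, each library left out, and identically valued genes left out. Replicate numbers gave no pairing by the check of shared deviations.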

Additional observations from a re-analysis of the deposited data

Results flagged for a closer look

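Control liver Ctrl-5 on NCD had a scaled Apoa2 value of 8546, with the nearest other control at 6056, a gap of 0.848 of the group's range. Knockout liver KO-2 on NCD had a scaled Apoa4 value of 28.46, with the nearest other knockout at 17.12, a gap of 0.84 of the range. These are 2 of 40 gene and group pairs examined, and chance marks about 1 in 20.

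The difference between the Falcor and control hairpin lines changed between treatments for 2 members. For Apob the change was −2.543 on the log2 scale between doxycycline and the untreated state and −1.427 between doxycycline and restoration (limma adjusted p = 1.11e-04 and 0.00883). For Apoc2 these values were −1.322 and −0.9516 (limma adjusted p = 0.00225 and 0.0204). Each was the test of the difference itself, over 3 libraries in each of the 4 groups.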

How the results depend on the processing

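Of 906 values of members under other settings, 844 kept their direction and side of the threshold, 38 lost a call, 12 gained one and 12 changed sign. Without rescaling they were Apoc2 in the restored hairpin comparison (0.01081), Apoe between doxycycline and untreated (−0.03104), Apoc3 and Apoe on NCD (0.03089 and 0.1702) and Apoh on HFD (−0.01989). With identically valued genes left out Apoh on HFD was −0.003338. With single libraries left out they were Apob in restored against untreated control cells (−0.02532 without untreated control library 1, range to 0.7525), Apoe between doxycycline and restoration (0.06746 without doxycycline Falcor hairpin library 3, range from −0.2583), and on NCD Apoe (0.04422 without Ctrl-2, range from −0.07892) and Apoa1 (−0.05293 without Ctrl-5, −0.04621 without KO-2, range to 0.08315). The number of members called in the untreated hairpin comparison was 1, and 2 without rescaling, with a mean of at least 1 or with no filter. In the restored comparison it was 1, and 2 with no filter. For the restored minus untreated difference it was 0, and 1 with a mean of at least 1 or with no filter. On NCD it was 2, against 5 without rescaling, 1 with median-of-ratios scaling, 0 with a mean of at least 1 and 1 with no filter; on HFD it was 0, and 1 without rescaling. With libraries left out singly it ranged from 0 to 3 on NCD, from 0 to 1 for the restored comparison and for the restored minus untreated difference, and from 2 to 3 for doxycycline against untreated in the control line and for the doxycycline hairpin comparison. It ranged from 1 to 2 for the doxycycline minus restored difference and for restored against untreated cells in either line. In the conventional comparisons it was 3, 2 and 3 in every such setting. Over all genes tested, 570 were called on NCD (397 higher, 173 lower), 1746 without rescaling (1657 higher, 89 lower), 156 with a mean of at least 1, 8 with the block and 6 to 1707 with single livers left out. On HFD 3 were called, and 29 without rescaling, 16 with identically valued genes left out and 1 with median-of-ratios scaling, 2 with a pseudocount of 0.5 and 12 with no filter, and 1 to 8 with single livers left out. Without rescaling the median of all genes was 0.163, 0.133 and 0.21 in the untreated, restored and NCD comparisons. The calls went from 2978 higher and 3467 lower to 4467 and 2141 in the untreated one, and to 4016 and 1959 in the restored one. A fit with a replicate block, for numbers that pair no cultures or mice by the labels, changed no AML12 count of members called. On NCD the block fit held only the livers with the 2 shared numbers, called 0 members (Apoa2 0.54, Apob 0.34) and put Apoe at 0.002981. The cause of these changes was not tested. Leaving out the identically valued genes was chosen after seeing the data on NCD and was marked as planned on HFD. The read depth of 3 tables is unknown, and Apoa1 under the conventional Falcor hairpin rests on 0 to 5 counts.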
